A study of Rattus norvegicus with 10 samples.

Results

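In methylated DNA captured from the rat hippocampus, 304 autosomal regions had a raw count of 0 in at least 1 of 8 rats although the 8 rats together gave at least 70 counts there. They were 304 of the 291494 autosomal regions that reached this summed count (0.104%), and the table held 574544 regions in all, 571404 of them on autosomes. A library with a raw count of 0 in such a region is called absent below. The regions were chosen by the raw counts of these 8 rats, so the values of these rats are given as a description, and only the 2 rats that the rule left aside bear on the regions independently.

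The rats were male Sprague-Dawley animals weighing 290 to 320 g. All of them, controls included, carried electrodes in the left lateral amygdala and had 2 weeks of recovery after surgery. SE rats then received electrical pulses to the amygdala for 30 min, or longer where needed, that evoked status epilepticus (SE), a seizure that does not stop by itself, and diazepam to end it. Control rats were sham operated and were not stimulated. Hippocampal DNA was taken 3 months later, with 1 library per rat. The label gives dorsal hippocampus, and the paper's methods describe a piece of the left hippocampus that held the CA3 and dentate gyrus fields. This tissue has many cell types, and no cell type markers were used here to check its make-up. Control rats 1, 3, 4 and 5 and SE rats 6, 8, 9 and 10 were used, and control rat 2 and SE rat 7, which the labels mark as discarded, were kept apart. Total counts ranged from 5499370 to 7179519 in the 8 libraries used and were 7154696 in control rat 2 and 14655629 in SE rat 7.

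Methyl-capture pulls down DNA fragments through a protein domain that binds methylated CpG dinucleotides. Most CpG sites of mammalian DNA are methylated. The capture does not resolve a single cytosine. Rats of one outbred colony also differ in their DNA sequence, and copies of a sequence can be present in some animals and missing in others. No uncaptured DNA was analysed here, so a lack of methylation, a lack of the DNA itself and tags that did not align cannot be told apart at any single region. Positions are those of the table, for which the methods name the rat genome RN4. Annotation of that build was not used here, so the regions are given by position, without genes.

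A count of 0 allows up to 3 counts in a library, which corresponds to normalized counts between 0.573 and 0.776 across the 8 libraries. A normalized count is a CPM value, with the library size taken over tested regions and scaled by edgeR's TMM method. These limits cover counting error only.

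Absence was mostly a matter of 1 rat. Of the 304 regions, 290 had 1 library at 0, 5 had 2, 7 had 3 and 2 had 4. In the 290 regions with 1 absent library, the next lowest library had a median of 6 counts. It held 5 or more counts in 214 of them and between 1 and 3 in 35. Thus most of these regions had a step between the absent rat and the next one, while the step was small in a minority.

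Most members lay close to the minimum of the rule. Their summed count had a median of 76, against 97 in the other 291190 autosomal regions, and 183 of them (60.2%) had a sum between 70 and 79. Regions with a 0 made up 0.286% of the regions with sums of 70 to 79, 0.0996% at 80 to 99, 0.0256% at 100 to 149 and 0.0120% at 150 or more. Only 29 members reached a sum of 100 and 5 a sum of 150, with 494 as the highest. Just inside the threshold, 28 members had a sum of 70, with between 11 and 25 counts in their highest library. Just outside it, 24 regions with a 0 had a sum of 69, with between 13 and 21 counts in their highest library. In the other direction, 1583 autosomal regions with a sum of at least 70 had 1 count in their lowest library and were left out by a single tag.

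Every rat was absent somewhere, and the number of regions differed widely between rats. Control rat 1 was absent in 45 regions, control rat 3 in 62, control rat 4 in 62 and control rat 5 in 27. SE rat 6 was absent in 15 regions, SE rat 8 in 40, SE rat 9 in 65 and SE rat 10 in 13. The libraries with the highest totals, SE rat 10 and control rat 5, were among the 3 with the fewest absences. SE rat 6 also had few, although its total of 5944187 lay close to the 5785523 of SE rat 9, which had the most. The part of depth in these numbers was not tested.

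**Figure D1:**
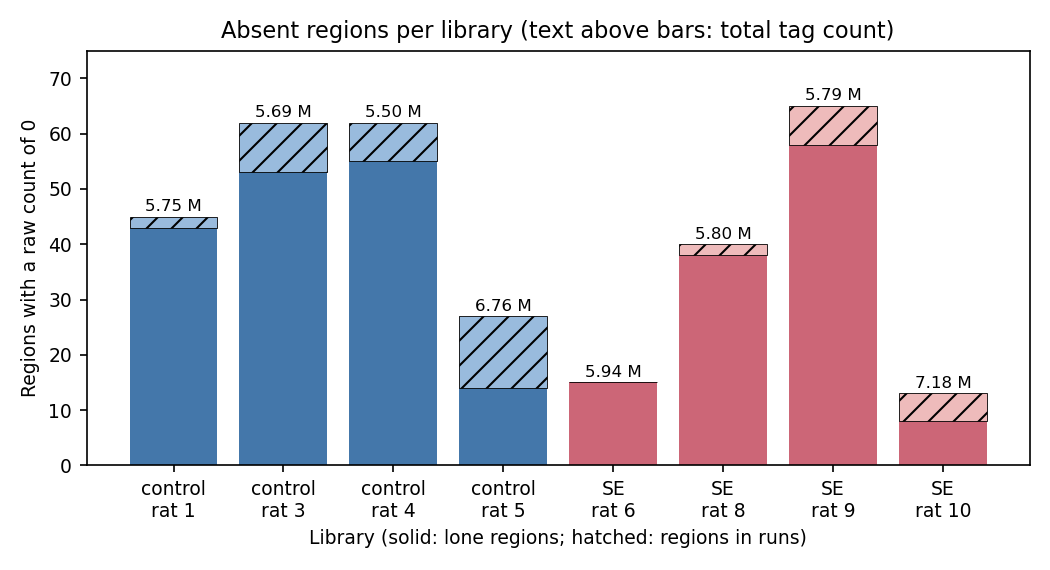
Number of regions with a raw count of 0 in each of the 8 libraries (vertical axis), with controls in blue and SE rats in red, solid bars for lone regions and hatched bars for regions in runs, and the total tag count (M for 1e6) above each bar. SE rat 9 has 65 absent regions and SE rat 10 has 13, and the bars of the control rats, 27 to 62, lie within that range.

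Both groups held absent rats, and no absence covered a whole group. The 304 regions held 329 absences, 196 in control and 133 in SE libraries (40.4%, 95% Wilson interval 35.3 to 45.8%). The interval counts absences as if they were independent, which neighbouring regions of 1 rat are not. The share was 26.1% without SE rat 9 and 48.1% without control rat 1, with the minimum sum lowered in proportion to the rats left. Leaving out a rat also makes the groups unequal in size, which by itself shifts the share. These shares are therefore not directly comparable with 40.4%, and how far it rests on single rats cannot be read from them alone. A total of 173 regions were absent in control rats only, 122 in SE rats only and 9 in rats of both groups. In 0 regions were all 4 control rats absent, and in 0 all 4 SE rats. The numbers per rat overlapped between the groups, from 27 to 62 in control and from 13 to 65 in SE rats.

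The strongest case of absence on the control side was chr18:30483827-30484547 (720 bp), the 1 region with 3 control rats at 0, which was chosen for mention after its values were seen. Raw counts were 33 in control rat 1 and 0 in control rats 3, 4 and 5. SE rats 6, 8, 9 and 10 had 18, 22, 11 and 18 counts. Control rat 1 had the highest count of the 8 rats here and the other controls the lowest, so the groups overlapped. Control rat 2, which the rule did not use, had 1 count, and SE rat 7 had 0. Hence an absent or nearly absent level was found in 4 of the 5 control rats and in 1 of the 5 SE rats over all 10 libraries. That 1 SE rat was SE rat 7, which was at 0 in 13.1% of the other autosomal regions, so its 0 here says little. SE over control gave a log2 fold change of 0.97 (standard error 0.47, unadjusted p = 0.0442, adjusted p = 0.714, edgeR quasi-likelihood F test with Benjamini-Hochberg values over all tested regions). Without control rat 1 the adjusted p of that edgeR test was 9.15e-07, since all remaining controls were then at 0. The p of this region therefore depends on control rat 1. The rule chose the region for the counts of 0 in these remaining controls, so nothing is read from the fit without control rat 1.

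The same libraries were low in the regions beside it. Over 5 successive regions of the table, from 30474433 to 30485959 on chromosome 18 (11.5 kb), control rats 3, 4 and 5 had 0 counts in all 5 regions. Control rat 1 had 97 counts in this stretch, SE rat 6 had 47, SE rat 8 had 86, SE rat 9 had 33 and SE rat 10 had 57. Control rat 2 had 1 count and SE rat 7 had 26.

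Absent regions were next looked at together with their neighbours, to see whether a rat was at 0 in a single region or over a longer piece. A run was defined as successive regions of at least 70 summed counts, all of them with a 0, in which each region shared an absent library with the one before. The 304 regions contained 6 runs with 23 members, and the other 281 are called lone regions. Of the 14 regions with more than 1 absent library, 12 lay in runs.

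The longest run, on chromosome 20, held 9 regions from 2783298 to 2800759 (17.5 kb) and included the 3 regions with the highest summed counts of the 304. In the first of them, chr20:2783298-2786496 (3198 bp), control rats 1 and 4 had 99 and 107 counts and control rats 3 and 5 had 0. SE rats 6, 8 and 10 had 22, 105 and 161 counts there and SE rat 9 had 0. The rats thus fell into 3 that were absent, 1 at an intermediate level and 4 close to one another, and both groups had absent and present rats.

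The fifth region of the run, chr20:2791779-2794713 (2934 bp), had the same order of rats with respect to absence. Control rats 1 and 4 had 106 and 76 counts, SE rats 6, 8 and 10 had 46, 105 and 133, and control rats 3 and 5 and SE rat 9 had 0. In chr20:2795652-2796794 (1142 bp) the absent rats were at 1 (control rat 3), 0 (control rat 5) and 1 (SE rat 9), against 45, 39, 10, 38 and 50 counts in control rats 1 and 4 and SE rats 6, 8 and 10. Over the 9 regions together, control rats 3 and 5 and SE rat 9 had 2, 1 and 3 counts. Control rat 1 had 399 counts, control rat 4 had 312, SE rat 6 had 114, SE rat 8 had 392 and SE rat 10 had 485. On the normalized scale these sums were 96.5, 80.7, 26.4, 94.1 and 92.6, so SE rat 6 stood at a lower level than the 4 other present rats in total. It was also the lowest of these 5 rats in each of the 9 regions.

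Both discarded rats had counts in the run. Control rat 2 had 392 counts over the run, with 112 in the first region and 133 in the fifth. SE rat 7 had 156 counts, from a library larger than that of control rat 2, and it was at 0 in 3 of the 9 regions.

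The ends of the run could be placed only as closely as the table regions allow. The region directly before it already had 0 counts in the 3 absent rats, and with it the stretch in which control rat 3 stayed at 0 or 1 was 10 regions long, from 2782856 to 2800759 (17.9 kb). The next region upstream with a summed count of at least 70, chr20:2769743-2770427, lay 12.9 kb away, where control rats 3 and 5 had 15 and 10 counts and SE rat 9 had 19, beside 10 to 24 in the other 5 rats. On the other side, chr20:2801726-2802273 began 0.967 kb after the run. It held 2, 3 and 6 counts in control rat 3, control rat 5 and SE rat 9, 4 in SE rat 6 and 10 to 18 in the 4 others. As background, the short-arm side of rat chromosome 20 carries the major histocompatibility complex, a gene-dense and highly polymorphic part of the genome, but whether the run lies in it was not analysed here.

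**Figure D2:**
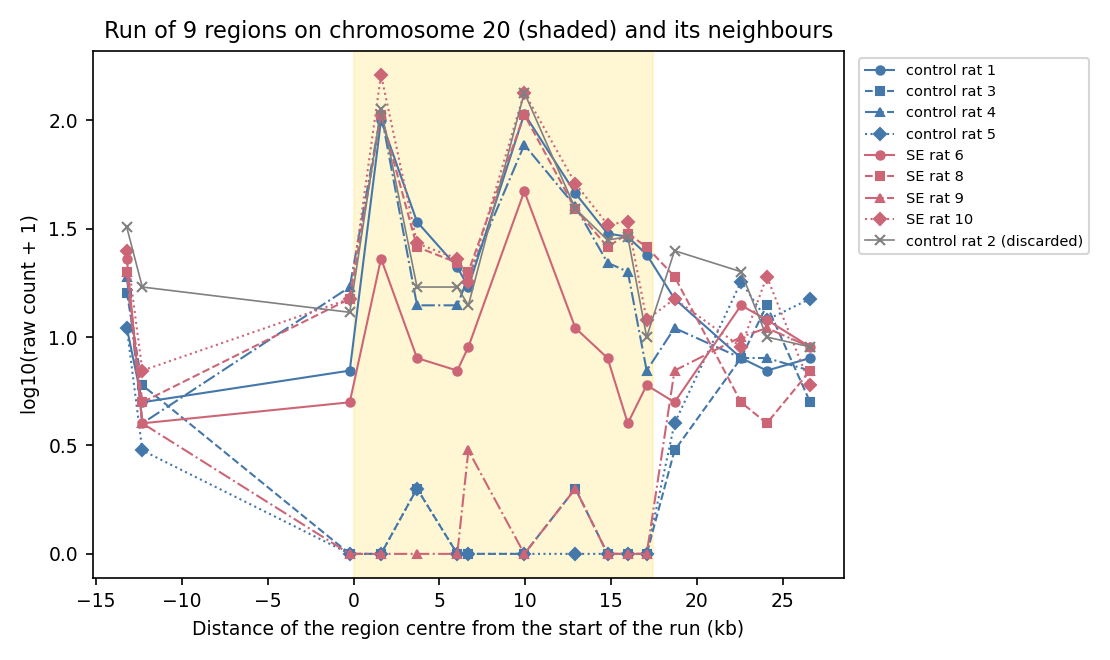
Raw counts as log10(count + 1) of the 8 libraries and of control rat 2 (grey) against the distance of each region's centre from the start of the chromosome 20 run in kb, with the run shaded and SE rat 7 left out. Control rats 3 and 5 and SE rat 9 drop to between 0 and 2 counts in the shaded regions and have more counts in the farther regions on both sides, and SE rat 6 runs between them and the remaining rats.

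On chromosome 1, a run of 4 regions from 61874300 to 61912681 (38.4 kb) was absent in control rats. Control rat 4 was at 0 in all 4 regions and control rat 5 in 3 of them, with 3 counts in the remaining one. Over the 4 regions control rat 1 had 76 counts, control rat 3 had 121, and SE rats 6, 8, 9 and 10 had 45, 35, 83 and 46. Control rat 2, outside the rule, was also at 0 in all 4, and SE rat 7 had 11 counts. The stretch in which control rat 4 stayed at 0 or 1 was longer than the run, with 11 regions from 61868772 to 61947341 (78.6 kb). Control rat 4 had 2 counts there and control rat 2 was at 0 in 10 of the 11 regions. Of the 5 control rats, 3 were thus absent or nearly absent over the run. The 4 SE rats used had counts in every region of it, whereas SE rat 7 was at 0 in 2 of the 4 regions and in 7 of the 11 regions of the stretch. Its normalized count over the run was 1.08, against 8.40 to 20.0 in the 4 SE rats used. The value of SE rat 7 came from a normalization over all 10 libraries, and the others from that over the 8.

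The runs on chromosomes 4 and 6 each belonged to 1 rat of the 8. On chromosome 4, 3 regions from 77665752 to 77678692 (12.9 kb) were absent in SE rat 10, which has the highest total of the 8 libraries. The other 7 rats had between 23 and 63 counts over the 3 regions. In chr4:77677299-77678031, the member with the highest sum among those absent in SE rat 10 only, control rats 1, 3, 4 and 5 had 32, 7, 12 and 23 counts and SE rats 6, 8 and 9 had 23, 15 and 13. SE rat 10 was at 0 in 7 successive regions of the table (15.2 kb).

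On chromosome 6, 3 regions from 139257341 to 139271474 (14.1 kb) were absent in control rat 4. In chr6:139258455-139259191 control rats 1, 3, 4 and 5 had 9, 30, 0 and 40 counts and SE rats 6, 8, 9 and 10 had 6, 12, 12 and 12. Control rats 3 and 5 were the highest of the 8 rats in all 3 regions, so that the controls held both ends of the range. Control rat 4 had 1 count in a stretch of 13 regions that reached from 138997933 to 139276348 (278 kb), in which SE rat 7 was at 0 in 12. Several other rats were also low in this stretch. Control rats 1, 3 and 5 had 39, 221 and 266 counts in it. SE rats 6, 8, 9 and 10 had 25, 98, 43 and 42. Control rat 1 and SE rat 6 were each at 0 in 5 of its regions. SE rats 9 and 10 were at 0 in 2 and 3. A lone region absent in control rat 4, chr6:139309648-139310127, lay in a further stretch of 5 regions in which control rat 4 and SE rat 7 were at 0 throughout. Close by, chr6:139466122-139466967 was the member with the highest sum absent in SE rat 9 only. Its counts were 6, 35, 14 and 32 in control rats 1, 3, 4 and 5 and 12, 28, 0 and 3 in SE rats 6, 8, 9 and 10.

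On chromosome 10, 2 regions had the largest number of absent rats. In chr10:12166450-12167504 control rats 1 and 3 and SE rats 8 and 10 were at 0, control rats 4 and 5 had 30 and 37 counts, and SE rats 6 and 9 had 4 and 29. In chr10:12167769-12168631 (862 bp) the same 4 rats were at 0, and the present rats had 16, 39, 10 and 19 counts in the same order. Control rat 2 had 31 and 53 counts in these regions and SE rat 7 had 3 and 6. Each group held 2 absent and 2 present rats, with SE rat 6 below the other present rats as on chromosome 20. The 4 absent rats stayed at 0 or 1 in all 5 regions of the table from 12166450 to 12175016 (8.57 kb). Control rats 4 and 5 had 78 and 125 counts over this stretch, and SE rats 6 and 9 had 26 and 66.

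A lone region on the same chromosome showed the same rats, within a span of 0.793 Mb that includes the run. In chr10:11375313-11376063, named after its values were seen, control rat 3 and SE rat 8 were at 0 and control rat 1 and SE rat 10 had 1 count. Control rats 4 and 5 had 19 and 32 counts there and SE rats 6 and 9 had 6 and 12. Control rats 1 and 3 had 1 and 0 counts, and SE rats 8 and 10 had 0 and 1, over 3 regions from 11373688 to 11376063 that include it. The 255 other table regions between this lone region and the end of the run did not share the pattern, since these 4 rats were at 0 in 0 of them. Control rats 1 and 3 and SE rats 8 and 10 had 2831, 2752, 2724 and 3586 counts over these 255 regions. The other 4 rats used had between 2536 and 2999.

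The remaining run, also on chromosome 10, held 2 regions from 104874028 to 104918879 (44.9 kb) that were absent in control rat 5. In chr10:104874028-104874989 control rats 1, 3, 4 and 5 had 9, 11, 14 and 0 counts, and SE rats 6, 8, 9 and 10 had 18, 31, 22 and 43. In chr10:104917501-104918879 the control rats had 10, 13, 14 and 0 counts and the SE rats 18, 28, 23 and 44. The groups did not overlap in either region. The discarded rats lay the other way round, with 34 and 68 counts in control rat 2 and 0 and 0 in SE rat 7. Control rat 5 had 2 counts in a stretch of 12 regions up to 104964608 (90.6 kb), and SE rat 7 was at 0 in all 12.

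**Figure D3:**
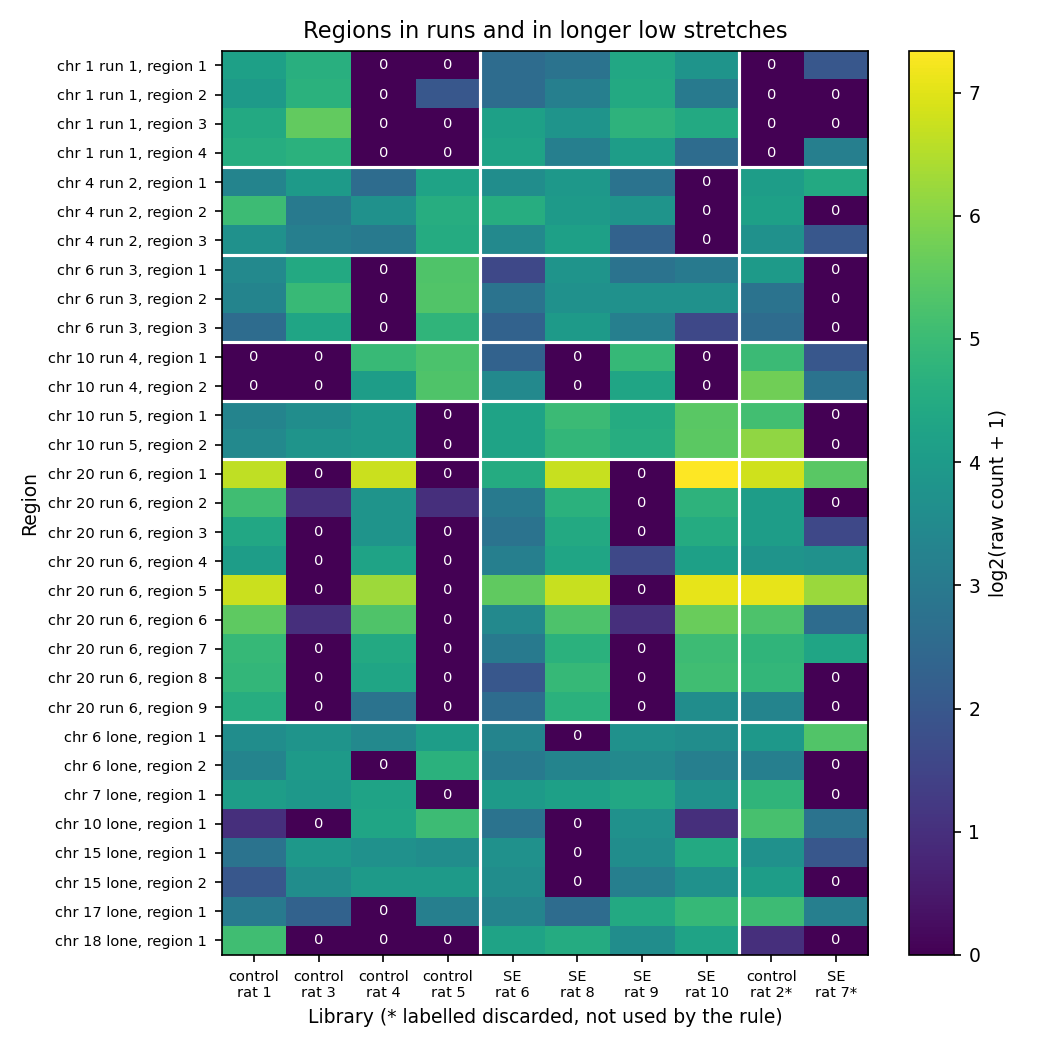
Raw counts as log2(count + 1) in each library (columns, with the discarded rats at the right marked by an asterisk) of the 23 regions in runs and of the 8 lone regions within low stretches of at least 3 regions (rows), with 0 printed in cells at 0. The 3 absent libraries on chromosome 20 belong to both groups, and control rat 2 is at 0 in all 4 regions of the chromosome 1 run.

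Outside the runs, absence was mostly limited to 1 region of the table. For each of the 329 absences, the stretch of consecutive table regions in which the absent rat stayed at 0 or 1 was measured, including regions below the summed count of 70. Over all autosomal regions and the 8 libraries, 2.55% of values were 0 or 1. Of the 284 absences of lone regions, 255 stood alone, and 11, in 8 regions, lay in stretches of at least 3 regions. Of the 45 absences in runs, 44 lay in stretches of at least 3 regions, which the definition of a run favours.

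The level of the absent rat was also read in the nearest table regions outside the 304. The count of the library in up to 2 of these regions on each side within 50 kb was scaled by the library total and divided by the median of the other 7. This relative level had a median of 0.967 beside lone absences (interquartile range 0.788 to 1.11), against 1.00 (0.859 to 1.16) in the other autosomal regions. It was at most 0.25 beside 8 of the 284 lone absences (2.82%) and beside 20 of the 45 absences in runs (44.4%), where the median was 0.389. In the other autosomal regions 0.00837% of values were this low. The typical lone absence was therefore flanked by regions at the usual level of the rat.

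**Figure D4:**
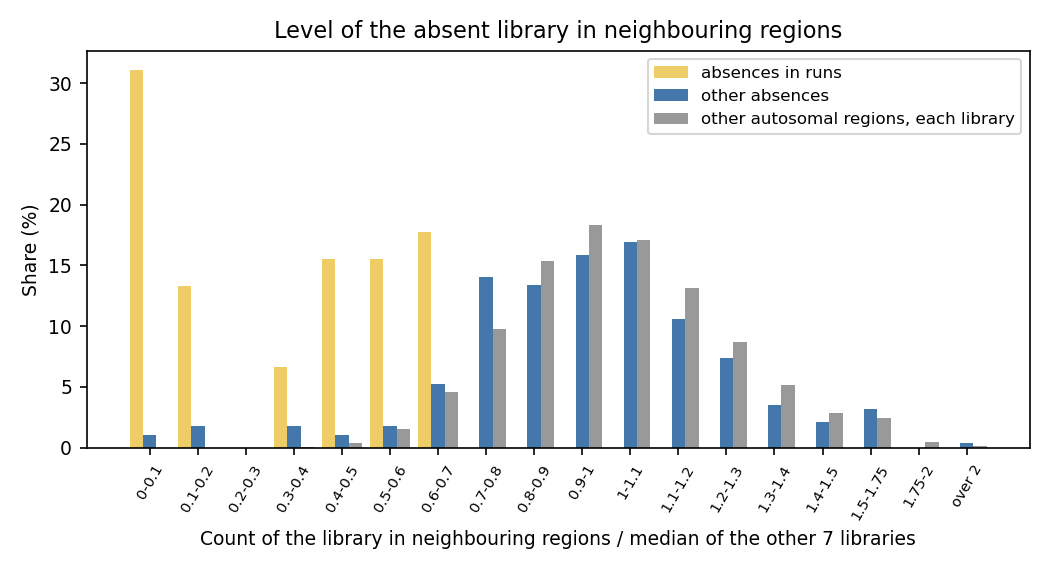
Share of absences in percent (vertical axis) by the count of the absent library in neighbouring regions relative to the median of the other 7 libraries (horizontal axis), for absences in runs (yellow), other absences (blue) and, as a reference, all libraries in other autosomal regions (grey). Beside lone absences the median is 0.967, near the reference of 1.00, whereas 44.4% of the absences in runs lie at or below 0.25.

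The step between the absent rat and the rest differed among the lone regions chosen as the highest sum for each absent rat. In chr5:56779701-56780236 control rat 3 was at 0, control rats 1, 4 and 5 had 21, 21 and 16 counts and SE rats 6, 8, 9 and 10 had 18, 18, 19 and 16. In chr10:65595711-65596162 control rat 1 was at 0, control rats 3, 4 and 5 had 17, 15 and 19 and the SE rats 9, 17, 13 and 12. In these regions every present rat had at least 9 counts. In chr13:47715544-47715960, absent in SE rat 6 only, the step was smaller. SE rats 8, 9 and 10 had 11, 12 and 16 counts there, and control rats 1, 3, 4 and 5 had 12, 10, 3 and 20. Its sum of 84 was shared by chr1:135370602-135371083, also absent in SE rat 6 only, where the lowest of the 7 present rats had 8 counts. The lone regions with the highest sums, chr15:30429086-30429846 and chr6:139466122-139466967, likewise had a next lowest rat at 3 counts.

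SE rat 8 was absent in 6 lone regions on chromosome 15 between 29201535 and 30429846 (1.23 Mb), a cluster found when members within 1 Mb that share an absent rat were joined, a definition added after the data were seen. In the last of them, chr15:30429086-30429846, SE rat 8 was at 0 and SE rats 6, 9 and 10 had 24, 22 and 23 counts. Control rats 1, 3, 4 and 5 had 3, 35, 26 and 34 counts there. Its summed count of 167 was the highest of all lone regions. Over the 6 regions SE rat 8 had 0 counts, control rat 1 had 29 and the other 6 rats between 78 and 118. The other 39 table regions within the cluster were lower in SE rat 8 as well. It had 207 counts in them, with 10 regions at 0, while the 7 other rats had between 387 and 647 and at most 1 region at 0 each.

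The rats that the rule left aside give an independent look at the same regions. Control rat 2 was at 0 in 4 of the 304 regions (1.32%), all of them in the chromosome 1 run, and in 323 of the 291190 other autosomal regions (0.111%). It was at 0 in 0 of the 281 lone regions, which allows a share of up to 1.07%. It had 3 or fewer counts in 19 of the 304 (6.25%), against 3.06% of the other regions, and a median of 10 counts, against 15. SE rat 7 was at 0 in 79 of the 304 regions (26.0%), against 13.1% of the other regions, and had a median of 14.5 counts against 25. Of these 79 regions 11 lay in runs and 68 were lone (24.2% of the lone regions). Over the whole autosomal table SE rat 7 was at 0 in 56850 regions and the 9 other libraries in 2089 to 10416, although its total was the highest. The part of this, and of the lower sums of members, in the differences was not tested.

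Regions with an absent rat were shorter and lay in sparser parts of the table than other regions. Their median length was 484.5 bp, against 591 bp in the other autosomal regions with at least 70 counts. Within 50 kb on either side the table held a median of 25 regions around members and 33 around other regions. Among regions with sums of 70 to 99 the medians were 476 and 500 bp and 26 and 31 regions. Regions in runs were longer, with a median of 756 bp, and had a median of 16 regions around them.

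All 20 autosomes held members. The share was highest on chromosome 20, with 23 of 8776 regions (0.262%), and was 0.160% there without the 9 regions of the run. It followed with 0.156% on chromosome 15, 0.153% on chromosome 2 and 0.143% on chromosome 16. The lowest shares were 0.0421% on chromosome 19 and 0.0305% on chromosome 12, which rest on 4 and 3 regions.

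Finally, the groups were compared at these regions in the fit over all 291987 tested regions. An unadjusted p below 0.01 was found in 24 of the 304 regions (7.89%), against 1.65% of all tested regions. SE rats were higher in 11 and lower in 13 of them, against 0.584% and 1.07% of all tested regions in these directions. The rule used the same counts and chose regions with 1 rat far from the others, so nothing is read from this share. Without control rat 1, 39 regions passed, against 2.01% of all tested regions in that fit. An adjusted p below 0.05 was found in 0 of the 304 regions by edgeR's quasi-likelihood test, against 0.00616% of all tested regions, with 65 at an unadjusted p below 0.05, against 20157 of all 291987 tested regions. At the adjusted threshold edgeR's exact test gave 1 region and DESeq2's Wald test gave 0, against 18 and 11 of all 291987 tested regions. DESeq2 returned no adjusted value for any region whose fold change is given here. Its 0 is therefore not comparable with the edgeR results. The 2 groups did not overlap in 11 regions (3.62%), against 3.63% of all tested regions, with SE rats above in 6 and below in 5, against 1.69% and 1.94%.

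The median log2 fold change of the 304 regions was 0.01, against 0.00 over all tested regions, with 155 regions (51.0%) above 0, against 50.3%. The median size without regard to sign was 0.44, against 0.25. The rule chose regions with a 0 in some rat from these same counts, so nothing is read from this size either.

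The smallest p among regions higher in SE rats belonged to the 2 regions of the chromosome 10 run. In chr10:104874028-104874989 control rats had a normalized count of 2.13 ± 1.54 (SD, n = 4) and SE rats one of 6.28 ± 1.87 (SD, n = 4). This gave a log2 fold change of 1.62 (standard error 0.34, adjusted p = 0.104 in the edgeR test). The log2 fold change was 0.68 over all 10 libraries, and neither there nor with DESeq2 did the region pass the unadjusted threshold. For chr10:104917501-104918879 the log2 fold change was 1.49 (standard error 0.34), and 0.08 over all 10 libraries, and this region did not pass the threshold there or with DESeq2 either. The third, chr4:183058818-183059458, was lone, with 11, 0, 9 and 10 counts in control rats 1, 3, 4 and 5 and 23, 17, 25 and 29 in SE rats 6, 8, 9 and 10. Here every present control rat also lay below every SE rat, and the log2 fold change was 1.55 (standard error 0.35, adjusted p = 0.190 in the edgeR test). Control rat 2 had 30 counts in this region and SE rat 7 had 8, and over all 10 libraries the log2 fold change was 0.67.

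Among regions lower in SE rats, chr1:41968819-41969412 had 26, 24, 0 and 24 counts in control rats 1, 3, 4 and 5 and 7, 4, 2 and 6 in SE rats 6, 8, 9 and 10. The absent rat was a control although the SE rats were lower, so the groups overlapped through this rat alone. The log2 fold change was -2.0 (standard error 0.45, adjusted p = 0.154 in the edgeR test). Without control rat 4, whose 0 alone brought the region under the rule, the adjusted p of that edgeR test was 0.000788. That fit leaves out the value by which the region was chosen, so nothing is read from it. Control rat 2 had 2 counts in this region, near the 0 of control rat 4 and below the 3 other controls. SE rat 7 had 90, far above the other SE rats, and over all 10 libraries the log2 fold change was -0.39. With DESeq2 the region did not pass the unadjusted threshold.

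In chr4:64438425-64438987 the control rats had 16, 13, 15 and 17 counts and the SE rats 9, 0, 9 and 8. In chr3:92943807-92944316 the control rats had 13, 11, 21 and 13 counts and SE rats 6, 8, 9 and 10 had 0, 9, 5 and 10. The groups did not overlap in either region. Their log2 fold changes were -1.30 (standard error 0.40) and -1.35 (standard error 0.42), with an adjusted p = 0.519 for both in the edgeR test. Neither region passed the unadjusted threshold without its absent SE rat, with log2 fold changes of -0.91 without SE rat 8 and -0.95 without SE rat 6. The region of chromosome 3 did not pass it without control rat 4 either, with a log2 fold change of -1.07. The region of chromosome 4, with 19 counts in control rat 2 and 24 in SE rat 7, did not pass it over all 10 libraries, with a log2 fold change of -1.17.

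**Figure D5:**
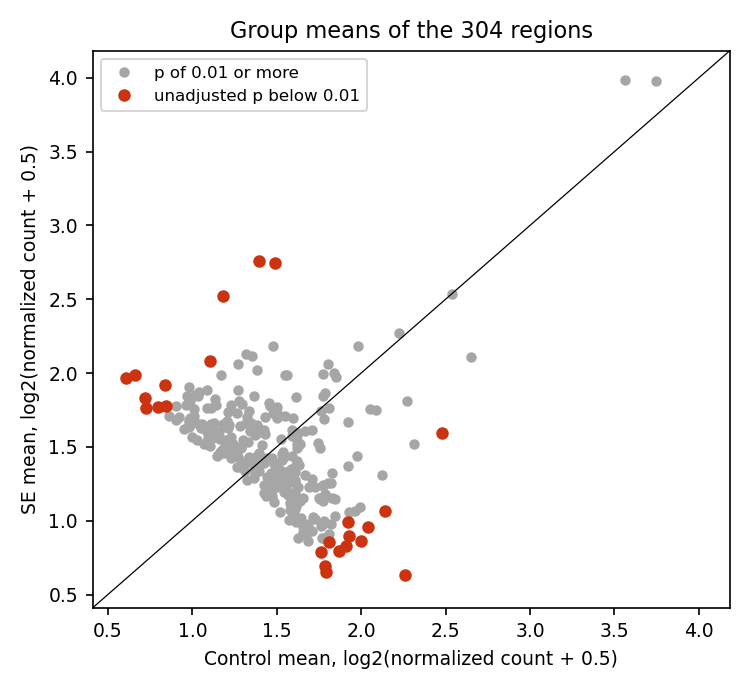
Mean normalized count of the 4 SE rats against that of the 4 control rats in each of the 304 regions, both as log2(mean + 0.5), with the line of equal means and regions with an unadjusted p below 0.01 in red. The 11 red regions above the line and the 13 below it lie on both sides of the bulk, and the strongest of the 304 regions, at the upper right, lie near the line.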

How the data were processed

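DNA of 5 control and 5 SE rats was captured with a methyl-binding protein (MBD) and sequenced with 36 bp tags, and the separate rats were the replicates. The authors aligned the tags to RN4 with BWA, merged regions that MACS found to differ in pairwise comparisons (BEDTools), removed duplicates and deposited raw tag counts per region, unnormalized. The merging admits regions that differ between 2 rats, so absence in 1 rat favours a region's entry. No table column belonged to a rat outside the labels.

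Groups came from the labels. The members, the lists and the rules were chosen with earlier results of these data known. Regions of any chromosome with a summed count of at least 70 (the median) over the 8 libraries used were normalized (TMM) and tested with edgeR's quasi-likelihood F test (edgeR 4.0.16, R 4.3.3), two-sided, with an unadjusted threshold of 0.01 and Benjamini-Hochberg values. The fit was tested on simulated data. Lengths are end minus start. Summaries used Python 3.11.15. Runs were chained, so no single library had to be at 0 in all regions of a run.

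Named regions were the 5 with the largest sums, the largest absent in each library only, the runs, those with the most absent libraries and the 3 smallest p in each direction. Others were named after their values were seen. Alternatives were DESeq2 (1.42.0), edgeR's exact test, other normalizations, filters and definitions of absence, all 10 libraries, and each rat left out. With at most 7179519 counts per library, counting error limits single regions.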

Additional observations from a re-analysis of the deposited data

Results flagged for a closer look

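Of the 82 groups of 4 libraries that were looked at for 1 rat far from the other 3, 6 stood out, and chance sets apart about 1 in 20 such groups. The regions were chosen for a 0 in some rat, which favours such groups. The total count of SE rat 10, 7179519, lay above those of the other SE rats, which ranged from 5785523 to 5944187. In chr18:30483827-30484547 control rat 1 had a normalized count of 7.98 while the other control rats were at 0. In chr10:12166450-12167504 SE rat 9 had a normalized count of 7.0, with SE rat 6 at 0.925 and the other SE rats at 0. In chr3:92943807-92944316 control rat 4 had 5.43, above the 2.69 to 3.14 of the other controls. Control rat 1 was at 0 in chr10:65595711-65596162, where the other controls had 3.88 to 4.20, and SE rat 6 was at 0 in chr13:47715544-47715960, where the other SE rats had 2.64 to 3.06.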

How the results depend on the processing

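The number of members depends on the definition. It was 1887 when up to 1 count was accepted in place of 0, 24228 with up to 3 counts, 29 with a sum of at least 100, 7 with a sum of at least 140, and 52614 over all 10 libraries, where SE rat 7 adds its zeros. Leaving out each rat gave 204 to 273, with the minimum sum lowered in proportion to the rats left. The same lowered minimum was used for the runs and the shares of absences with each rat left out. Members in runs numbered 36 when regions within 1 Mb were joined and 13 to 23 with each rat left out, the lowest without control rat 5. The share of absences in SE rats was 48.2% with up to 1 count, 25% at a sum of at least 140, 26.1 to 48.1% with each rat left out, and 41.9% without the runs. With a rat left out the share also shifts because the groups are then unequal in size. Members at an unadjusted p below 0.01 numbered 6 with DESeq2, 4 of 29 at a sum of at least 100, 0 of 192 tested over all 10 libraries (edgeR, with 6 at a p below 0.05), and 22 to 39 with each rat left out. Other normalizations, the exact test and no filter gave 23 to 25, against 1.38 to 1.65% of all tested regions in those fits. The shares of all tested regions were 0.488% with DESeq2, 1.86% at a sum of at least 100 and 0.497% over all 10 libraries. With each rat left out they were 1.32 to 2.01%. Over all regions the count was 4821, against 1425 with DESeq2, 7933 without a filter, 2520 at a sum of at least 100, 1429 over all 10 libraries and 3851 to 5883 with each rat left out. The cause was not tested. Log2 fold changes of 7 regions were recomputed, and none changed direction in the fits that tested the region. The fit over all 10 libraries did not test chr3:92943807-92944316, and the filter at a sum of 100 did not test that region, chr1:41968819-41969412 or chr4:64438425-64438987. No paired analysis was possible because the groups share no rat number. With 1 count more or less a region can enter or leave, so depth limits the list near its threshold.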

Other observations

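Of the lone absences in stretches of at least 3 regions, those whose stretch was not yet given by value lay on chromosomes 6, 7, 15 and 17. In chr6:104101090-104101566 SE rat 8 was absent within 4 table regions (17.5 kb) in which it had 0 counts, beside 17 to 39 counts in the 7 other rats used. In chr7:142950208-142951036 control rat 5 was absent within 4 regions spanning 53.1 kb, in which it had 0 counts and the other 7 rats 19 to 34. The member itself held 112 counts over the 8 rats. Control rats 1, 3 and 4 and SE rats 8, 9 and 10 were each at 0 in 1 of the 4 regions too, so the stretch was sparse in most rats. On chromosome 15, chr15:29201535-29201998 and chr15:29208807-29209178 lay in the same stretch of 4 regions (7.64 kb). SE rat 8 had 1 count in it, beside 22 to 51 in the 7 other rats used. In chr17:21713441-21714122 control rat 4 had 0 counts over 3 regions (3.10 kb). SE rat 9 had 36 counts there, SE rat 10 had 35 and the other 5 rats between 5 and 14. Control rats 1, 3 and 5 and SE rats 8 and 9 were each at 0 in 1 of these 3 regions.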
